A study of Homo sapiens with 10 samples.

Results

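The chromosome 9 locus of ASS1 and PRDM12 was examined by H3K27ac ChIP-seq (acetyl groups on histone H3 lysine 27, found at promoters and enhancers in use) in cells treated to degrade the PAX3-FOXO1 fusion protein. Its members are the rows of an H3K27ac count table (hg19) that start between 133250000 and 133420000, named here the ASS1 window, or between 133500000 and 133600000, the PRDM12 window. The ASS1 window holds 16 peaks and the PRDM12 window 10, together 26 of the 42067 peaks in the table. The stretch from 133420001 to 133499999, named for FUBP3, holds 1 peak and serves for comparison. Peaks were taken by position alone, but the locus itself was selected on H3K27ac changes against DMSO seen earlier in these same libraries. Its levels, changes and calls are therefore a description and support nothing beyond it.

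The cells were Rh30, an established line of alveolar rhabdomyosarcoma, carrying PAX3-FOXO1 joined to FKBP. FKBP is a tag that lets the ligand dTAG47 bring the fusion to the protein disposal machinery. The treated groups received 500 nM dTAG47 for 2 h, 4 h or 24 h, and the control group received the solvent DMSO, with 2 H3K27ac libraries per group, called A and B. All 4 groups carry the tagged fusion, and the labels say neither whether the cells are 1 clone nor whether the libraries came from separate cultures. How long DMSO was given is not in the labels. The same 2 DMSO libraries serve all 3 times, so these comparisons are not independent. P-values measure only the spread between these libraries, which may be technical. The 8 libraries held between 3540104 and 5001652 reads in peaks. The labels do not give the amount of fusion protein left, and it was not analysed here.

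PAX3-FOXO1 joins the paired domain and homeodomain of PAX3, which bind DNA, to the activating part of FOXO1. It binds enhancers, often far from promoters, and drives the gene program of this tumor. Acetylation of H3K27 is placed by the enzymes p300 and CBP and is quickly removed by histone deacetylases, so it can follow the loss of an activator within hours. ASS1 encodes argininosuccinate synthase, which joins citrulline and aspartate in the urea cycle and is the limiting step of arginine synthesis. PRDM12 encodes a zinc finger transcription regulator of the PR domain family, known for its part in the development of pain-sensing neurons. FUBP3 encodes a protein that binds single-stranded DNA and RNA. In the RefSeq gene table, which is on another build (GRCh38.p14), the protein-coding genes follow each other in the order HMCN2, ASS1, FUBP3, PRDM12, EXOSC2 and ABL1. EXOSC2 encodes a subunit of the RNA exosome and ABL1 a tyrosine kinase. The count table names no genes, so peaks are given by position, and a peak in the PRDM12 window may belong to another gene of this row. Other genes of arginine synthesis could not be placed in the table for the same reason.

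The RefSeq promoters of the 3 genes are shown because they are the sequence at hand for this locus. They run from 250 bases before to 50 bases after a gene's start on GRCh38.p14, all on the plus strand. These coordinates cannot be set against the hg19 peaks, so no peak is assigned to a promoter. Capitals mark matches, on either strand, to ATTA (the core of homeodomain sites), TGACTAA (part of the composite site for the paired domain and homeodomain; it can overlap ATTA) or CANNTG (the E-box of helix-loop-helix factors). For ASS1 the table gives 2 starts, and the promoters overlap.
ASS1, chr9:130444457-130444756, at the gene's first start: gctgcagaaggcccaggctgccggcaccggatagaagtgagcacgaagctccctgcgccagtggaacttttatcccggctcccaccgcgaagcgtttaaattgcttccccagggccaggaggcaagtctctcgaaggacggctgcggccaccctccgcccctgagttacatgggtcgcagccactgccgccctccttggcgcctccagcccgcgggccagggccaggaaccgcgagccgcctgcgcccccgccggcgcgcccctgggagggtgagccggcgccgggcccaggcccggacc
ASS1, chr9:130444711-130445010, at its other start: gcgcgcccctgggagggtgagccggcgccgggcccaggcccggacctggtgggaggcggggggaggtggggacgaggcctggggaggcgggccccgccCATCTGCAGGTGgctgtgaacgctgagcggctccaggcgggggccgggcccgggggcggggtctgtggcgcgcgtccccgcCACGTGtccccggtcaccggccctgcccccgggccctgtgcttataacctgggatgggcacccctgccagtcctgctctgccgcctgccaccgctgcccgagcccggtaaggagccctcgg
PRDM12, chr9:130664344-130664643: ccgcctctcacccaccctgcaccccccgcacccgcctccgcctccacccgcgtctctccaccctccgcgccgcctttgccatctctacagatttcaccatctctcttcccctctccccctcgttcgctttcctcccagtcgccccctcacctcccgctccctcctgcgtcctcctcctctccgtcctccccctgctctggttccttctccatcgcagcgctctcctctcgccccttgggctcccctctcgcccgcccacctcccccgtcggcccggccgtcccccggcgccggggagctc
FUBP3, chr9:130579327-130579626: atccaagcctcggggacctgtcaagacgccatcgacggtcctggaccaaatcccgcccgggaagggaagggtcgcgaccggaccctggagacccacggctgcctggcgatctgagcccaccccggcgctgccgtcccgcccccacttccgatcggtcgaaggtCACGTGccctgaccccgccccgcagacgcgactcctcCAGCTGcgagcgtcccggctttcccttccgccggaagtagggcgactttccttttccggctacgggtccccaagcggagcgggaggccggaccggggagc

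None of these 4 promoters holds ATTA or TGACTAA in its 300 bases. Among the 35116 promoters of that length in the table, 50.2% hold ATTA and 1.90% hold TGACTAA. The E-box letters occur 3 times in the second ASS1 promoter and 2 times in that of FUBP3, but not in the first ASS1 promoter or in that of PRDM12, and 68.7% of all promoters hold them. All 4 are rich in G and C, at 71.7% and 78.3% for ASS1, 71.7% for PRDM12 and 70.3% for FUBP3, against a median of 58.7% over all promoters. They hold 29, 29, 27 and 35 CpG pairs in the same order, against a median of 14. These matches describe letters in a window and say nothing of binding.

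H3K27ac fell after dTAG47 at 2 blocks of neighbouring peaks on either side of the FUBP3 peak. One, of 5 peaks, lies in the ASS1 window. The other, of 4 peaks, lies in the PRDM12 window, with 1 more falling peak beyond it. Each of these peaks had a lower mean at 24 h than in DMSO, and 2 further ASS1 peaks outside the blocks were called lower at 24 h alone. A block is the longest run of neighbouring peaks of a window that were called lower at 2 h, so a drop at 2 h inside the blocks, and its lack outside them, comes from that choice. The extent of the ASS1 block rests on 2 h calls of which several were lost under other settings, as given below. No peak of either window was called higher at any time, and the FUBP3 peak was called in no comparison. A peak is called where edgeR's quasi-likelihood test over all 41791 tested peaks gives a Benjamini-Hochberg adjusted p under 0.05. All 26 peaks were among those tested.

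At 2 h, 5 of the 16 ASS1 peaks and 5 of the 10 PRDM12 peaks were called lower, where 1.03% of all tested peaks were. At 4 h the counts were 4 and 5, with 1.67% of all peaks called lower, and at 24 h they were 7 and 5, with 4.88%. In the other direction, 0.194%, 0.567% and 3.46% of all peaks were called higher at 2 h, 4 h and 24 h. Over the ASS1 window the median log2 change was -0.09, -0.17 and -0.30 at 2 h, 4 h and 24 h. Over the PRDM12 window it was -0.34, -0.45 and -0.57, and over all tested peaks 0.0047, 0.0037 and 0.0011. Both treated libraries lay below both DMSO libraries at 7, 9 and 11 ASS1 peaks and at 6, 5 and 9 PRDM12 peaks at the 3 times, where 20.1%, 21.5% and 25.1% of all peaks did so. They lay above both DMSO libraries at 4, 3 and 1 ASS1 peaks and at 1, 1 and 0 PRDM12 peaks. The share of all peaks in that direction is not given here. Of the 26 members, 9 were called lower at each of the 3 times, 1 at 2 h and 24 h, 2 at 24 h alone, and 14 at none. By mean signal, 23 of the 26 peaks were no weaker than the median tested peak, some of them only slightly stronger. The median peak averaged 13.7 CPM (read counts scaled to library size by TMM).

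**Figure D1:**
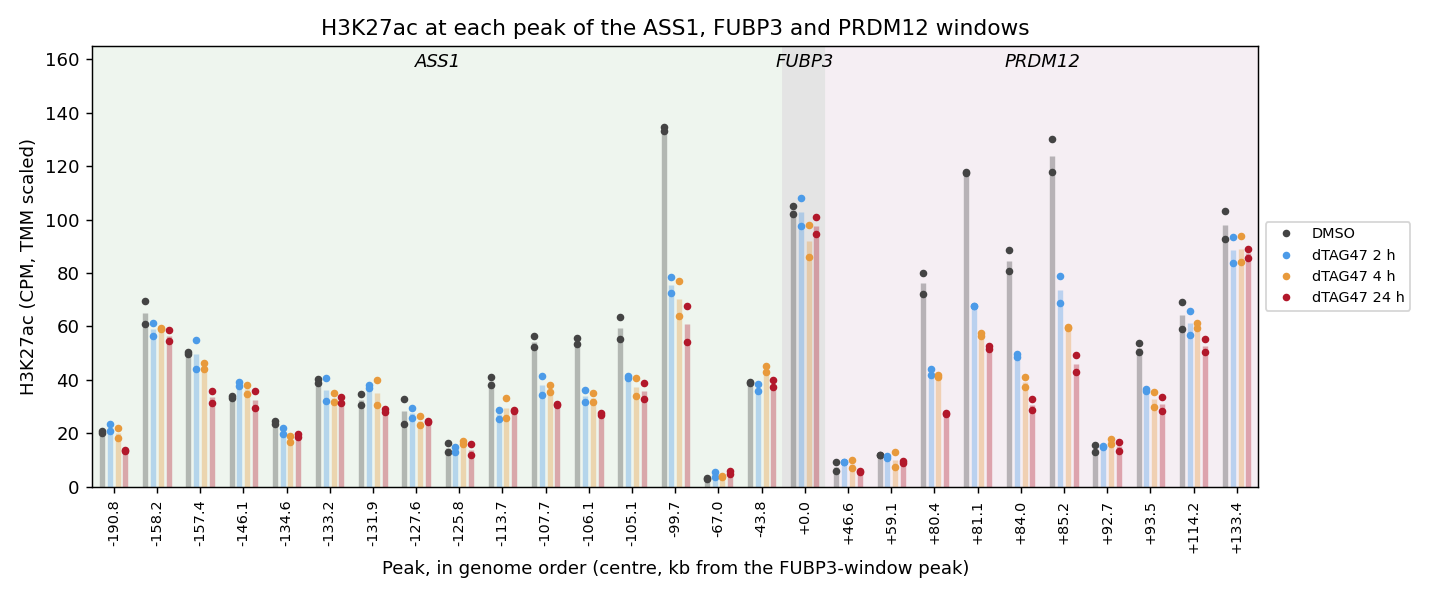
H3K27ac in CPM (vertical axis) at each peak of the 3 windows, in genome order and marked by the distance of its centre from the FUBP3 peak in kb; bars are means of 2 libraries and points the libraries. The 5 peaks from -113.7 to -99.7 kb and the 4 from +80.4 to +85.2 kb are highest in DMSO, while the FUBP3 peak stays between 86.2 and 108 CPM in every library.

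**Figure D2:**
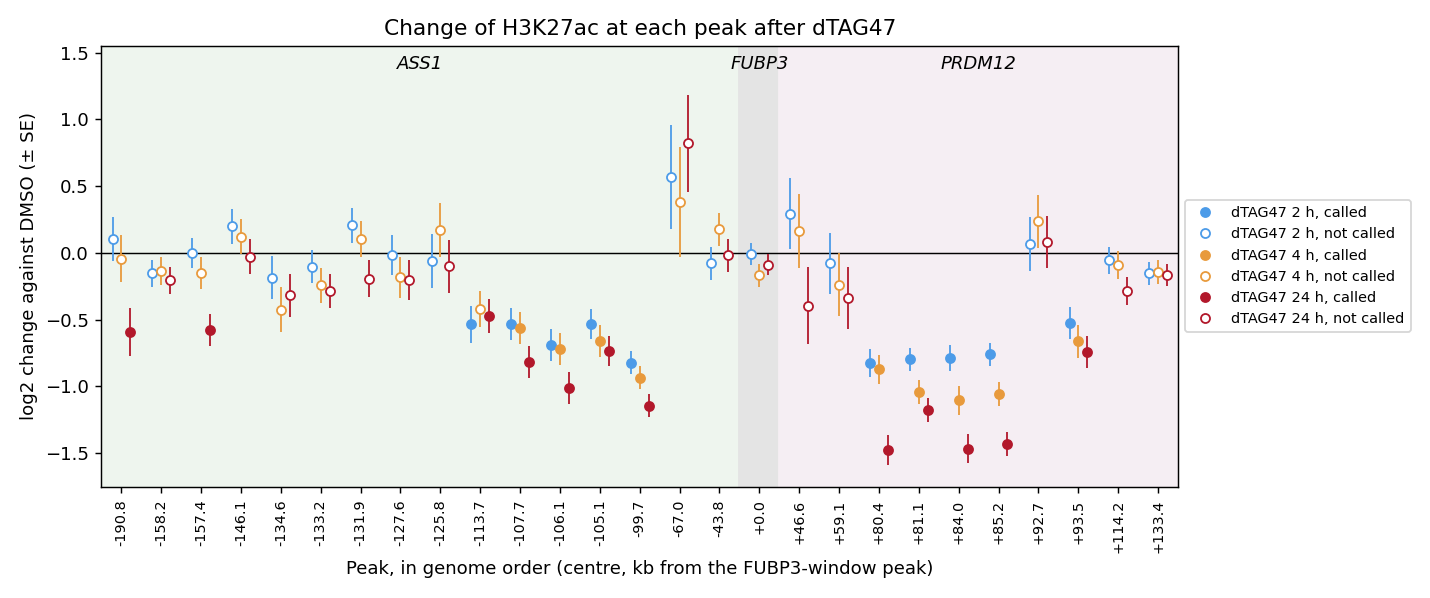
Log2 change of H3K27ac against DMSO (vertical axis, bars are standard errors) at each peak of the 3 windows in genome order, for 2 h, 4 h and 24 h of dTAG47. Filled points passed the test over all peaks and lie in the blocks, at the peak at +93.5 kb and, at 24 h alone, at the peaks at -190.8 and -157.4 kb.

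The PRDM12 block runs from 133535360 to 133540474, a span of 5.11 kb, with gaps of 295, 2474 and 745 bases between its peaks. The peak at 133540074 to 133540474 held 130.1 and 118 CPM in the DMSO libraries, 78.7 and 68.7 CPM at 2 h, 59.7 and 59.6 CPM at 4 h, and 43.0 and 49.1 CPM at 24 h. Every group lay below the one before it, with no overlap. Its log2 change against DMSO was -0.76 at 2 h (SE 0.09), -1.05 at 4 h (SE 0.09) and -1.43 at 24 h (SE 0.09), so that 0.371 of the DMSO level was left at 24 h. The peak at 133536055 to 133536455 held 117 and 118 CPM in DMSO, 67.7 and 67.6 CPM at 2 h, 56.4 and 57.6 CPM at 4 h, and 52.5 and 51.4 CPM at 24 h. Here the libraries of each group lay close together, and the step from DMSO to 2 h (log2 change -0.80, SE 0.09) was larger than the later ones.

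The remaining members of the block, at 133538929 and 133535360, kept 0.362 and 0.359 of their DMSO level at 24 h. These values are close to the 0.371 at 133540074, and differences between peaks were not tested. The peak at 133538929 to 133539329 held 80.6 and 88.6 CPM in DMSO, 49.5 and 48.6 CPM at 2 h, 37.4 and 41.2 CPM at 4 h, and 28.7 and 32.8 CPM at 24 h. Each group lay below the one before it, and the log2 change reached -0.79 at 2 h, -1.10 at 4 h and -1.47 at 24 h (SE 0.11). The peak at 133535360 to 133535760 held 80.0 and 72.2 CPM in DMSO, 41.8 and 44.0 CPM at 2 h, 41.2 and 41.9 CPM at 4 h, and 27.5 and 27.1 CPM at 24 h. It was almost level between 2 h and 4 h and lower again at 24 h, where its log2 change was -1.48 (SE 0.11). Ranked by the 24 h log2 change from the most negative, the 4 peaks of the block stand at 126, 131, 141 and 321 among the 41791 tested peaks. All 4 were called lower at every time, also by DESeq2 and with any 1 library left out.

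Summed over the 4 peaks, the PRDM12 block held 402 ± 8.22 CPM in DMSO, 233 ± 6.24 CPM at 2 h, 197 ± 3.95 CPM at 4 h and 156 ± 6.11 CPM at 24 h (SD, n = 2 each). The block was thus at 58.0%, 49.1% and 38.8% of its DMSO level at the 3 times. It made up 43.3% to 44.0% of the reads of the PRDM12 window in the 24 h libraries and 61.7% to 62.1% in the DMSO libraries. The blocks were chosen after their values were seen, and their sums have no test.

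Outside the block, a peak at 133548398 to 133548798 held 53.8 and 50.3 CPM in DMSO, 35.8 and 36.5 CPM at 2 h, 30.0 and 35.5 CPM at 4 h, and 33.7 and 28.2 CPM at 24 h. It was lower in every treated library than in both DMSO libraries, with log2 changes of -0.52, -0.66 and -0.74. Its call at 2 h was lost without DMSO library A (edgeR adjusted p = 0.153), DMSO library B (0.0505) or 2 h library B (0.0884). DESeq2 did not call it at 2 h (adjusted p = 0.797) or 4 h (0.113). Its neighbour at 133547602 to 133548002, only 396 bases away, held 13.5 and 16.8 CPM at 24 h and 12.8 and 15.6 CPM in DMSO. Those 2 groups overlap, and that peak was not called at any time.

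The far end of the window carries strong peaks that were not called. The peak at 133588372 to 133588772 has the highest mean signal of the window over all 8 libraries. In DMSO alone, the block peaks at 133540074 and 133536055 had higher means, of 124 and 118 CPM. The peak at 133588372 held 92.8 and 103 CPM in DMSO, 93.3 and 83.8 CPM at 2 h, 93.8 and 84.1 CPM at 4 h, and 85.8 and 88.9 CPM at 24 h. Its log2 changes ran from -0.14 to -0.17. The peak at 133569155 to 133569555 held 69.2 and 59.1 CPM in DMSO, 57.0 and 65.7 CPM at 2 h, 61.4 and 59.3 CPM at 4 h, and 50.3 and 55.3 CPM at 24 h. Its 24 h log2 change of -0.28 (SE 0.10) was not called with all 4 groups in the model, but was in a model of 24 h and DMSO alone (adjusted p = 0.0474). The remaining 2 peaks, at 133501547 and 133514008, were weak, with 5.55 to 13.1 CPM in every library, and were not called. Summed, the 6 peaks outside the block held 201 ± 3.94 CPM at 24 h and 248 ± 2.37 CPM in DMSO, a share of 81.3%. This sum includes the peak at 133548398, which was called lower at each time.

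In the ASS1 window the falling block spans 14.4 kb from 133341253 to 133355671, with gaps of 5612, 1167, 588 and 5051 bases. The peak at its end nearest to FUBP3, at 133355271 to 133355671, is the strongest of the window, with a mean signal in the 96.3rd percentile of all tested peaks. It held 133 and 135 CPM in DMSO, 72.4 and 78.5 CPM at 2 h, 76.9 and 63.8 CPM at 4 h, and 54.3 and 67.6 CPM at 24 h. All treated libraries lay far below both DMSO libraries, while the treated groups partly overlapped each other. Its log2 change was -0.82 at 2 h (SE 0.08), -0.93 at 4 h (SE 0.09) and -1.14 at 24 h (SE 0.09). It was called at every time by edgeR and DESeq2 and with any 1 library left out.

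The 3 peaks before it form a tight group with gaps of 1167 and 588 bases. The one at 133348832 to 133349232 held 53.5 and 55.7 CPM in DMSO, 36.3 and 31.8 CPM at 2 h, 34.9 and 31.5 CPM at 4 h, and 26.7 and 27.5 CPM at 24 h. Its log2 changes were -0.69, -0.72 and -1.01 in the order of the times. The one at 133347265 to 133347665 held 52.4 and 56.3 CPM in DMSO, 41.6 and 34.4 CPM at 2 h, 35.4 and 38.0 CPM at 4 h, and 30.7 and 30.9 CPM at 24 h. The one at 133349820 to 133350220 held 55.2 and 63.4 CPM in DMSO, 41.3 and 40.8 CPM at 2 h, 34.1 and 40.7 CPM at 4 h, and 32.7 and 38.9 CPM at 24 h. Every treated library of these peaks lay below both DMSO libraries, with log2 changes from -0.53 at 2 h to -0.82 and -0.74 at 24 h for the last pair. The first peak of the block, at 133341253 to 133341653, held 41.0 and 38.1 CPM in DMSO, 25.3 and 28.8 CPM at 2 h, 25.6 and 33.3 CPM at 4 h, and 28.7 and 28.2 CPM at 24 h. It was called at 2 h and 24 h (log2 change -0.54 and -0.47) but not at 4 h (-0.42). Its mean was lowest at 2 h, but the treated groups overlapped. Against 2 h its log2 change was 0.12 at 4 h and 0.06 at 24 h (SE 0.14 each), and neither was called.

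Several of these ASS1 calls were lost with 1 library fewer, while the log2 changes stayed negative. At 2 h, the peaks at 133347265 and 133349820 were not called without DMSO library B (edgeR adjusted p = 0.153 and 0.213) or 2 h library B (0.302 and 0.0742). Their log2 changes were then -0.48 and -0.43 without DMSO B and -0.39 and -0.52 without 2 h B, against -0.53 for both with all libraries. The peak at 133341253 lost its 2 h call whichever library was dropped: DMSO A (0.248), DMSO B (0.103), 2 h A (0.170) or 2 h B (0.0747), with log2 changes between -0.64 and -0.46. Its 24 h call went when DMSO A (0.146), 24 h A (0.0611) or 24 h B (0.0640) was dropped. Leaving out DMSO B also cost the peak at 133347265 its 4 h call (0.0750). As a result, 2 ASS1 peaks were called lower at 2 h when either B library (DMSO or 2 h) was missing, and 4 when either A library was. DESeq2 called 1 ASS1 peak at 2 h, 2 at 4 h and 4 at 24 h.

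Summed, the 5 peaks of the ASS1 block held 342 ± 8.96 CPM in DMSO, 216 ± 1.86 CPM at 2 h, 207 ± 0.190 CPM at 4 h and 183 ± 14.1 CPM at 24 h (SD, n = 2 each). These are 63.1%, 60.6% and 53.6% of the DMSO level, so the block kept more of its signal than the PRDM12 block at each time, a difference that was not tested. Its share of the reads of the ASS1 window was 36.7% to 39.3% at 24 h and 49.1% to 49.7% in DMSO.

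**Figure D3:**
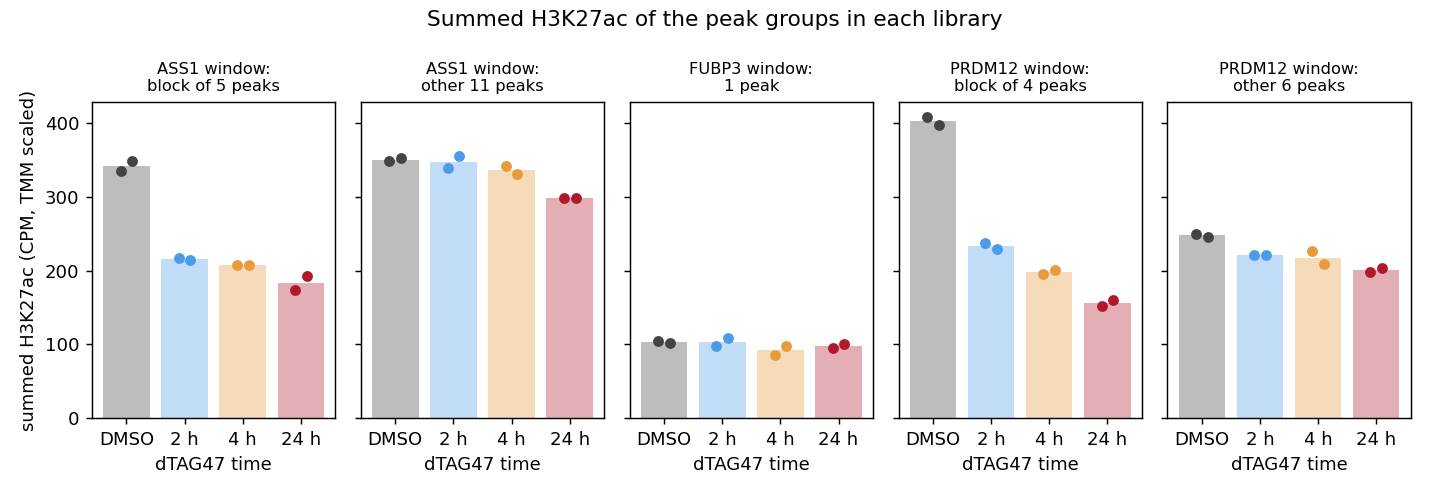
Summed H3K27ac in CPM (vertical axis, from 0) of each group of peaks in DMSO and after 2 h, 4 h and 24 h of dTAG47; bars are means of 2 libraries and points the libraries. At 2 h the blocks, which were chosen for calls at that time, are at 216 CPM in the ASS1 window and 233 CPM in the PRDM12 window, and the other 11 ASS1 peaks are at 347 CPM at 2 h and 298 CPM at 24 h.

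The 11 other peaks of the ASS1 window together held 349.8 ± 3.12 CPM in DMSO, 347 ± 10.8 CPM at 2 h, 336 ± 7.66 CPM at 4 h and 298 ± 0.368 CPM at 24 h (SD, n = 2 each). At 2 h and 4 h they were at 99.2% and 96.1% of the DMSO level, and at 24 h at 85.3%; a level near DMSO at 2 h follows from how the block was set apart. Among them, 2 were called lower at 24 h alone. The peak at 133297541 to 133297941 held 49.5 and 50.6 CPM in DMSO, 44.0 and 55.0 CPM at 2 h, 46.4 and 43.9 CPM at 4 h, and 35.7 and 31.2 CPM at 24 h. Its 2 h libraries lie on either side of DMSO, and its 24 h libraries are the lowest of the 8. The log2 change was -0.58 at 24 h (SE 0.12), which DESeq2 did not call (adjusted p = 0.0675).

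The other late loss was at 133264141 to 133264541, the first peak of the window. It held 20.8 and 20.2 CPM in DMSO, 23.4 and 20.9 CPM at 2 h, 21.8 and 18.1 CPM at 4 h, and 13.5 and 13.6 CPM at 24 h. Its 24 h log2 change was -0.59 (SE 0.18). That call did not survive the removal of DMSO A (edgeR adjusted p = 0.146), DMSO B (0.106), 24 h A (0.129) or 24 h B (0.0875), and DESeq2 did not make it (0.419). Just outside the window, the nearest peak, at 133244851, held 9.11 and 10.9 CPM at 24 h and 10.8 and 13.9 CPM in DMSO. At the other edge, the last PRDM12 peak is the one at 133588372, and the next peak in the table, at 133698769, held 8.52 and 8.64 CPM at 24 h and 8.26 and 5.68 CPM in DMSO. Neither outer peak was called in any comparison.

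Some strong peaks of the ASS1 window outside the block were not called singly against DMSO. The peak at 133296688 to 133297088 lies 453 bases from that at 133297541. It held 60.9 and 69.3 CPM in DMSO, 61.4 and 56.3 CPM at 2 h, 59.2 and 59.3 CPM at 4 h, and 54.5 and 58.7 CPM at 24 h (log2 change at 24 h -0.21, SE 0.10). Toward FUBP3, the peak at 133411131 to 133411531 held 39.3 and 38.6 CPM in DMSO, 38.3 and 35.8 CPM at 2 h, 42.8 and 45.2 CPM at 4 h, and 37.2 and 39.8 CPM at 24 h. Its groups at 24 h and in DMSO overlap. The remaining 7 peaks include a row of 5 between 133320318 and 133329485, with 11.7 to 40.5 CPM in every library. None of the 7 was called against DMSO as a single peak. Joined at a distance of 5 kb, the row of 5 became 1 region that was called lower at 24 h (log2 change -0.23, SE 0.07), where 5.06% of the 34171 regions so joined were. It held 141 and 136 CPM in DMSO, 128 and 145 CPM at 2 h, 129 and 126 CPM at 4 h, and 117 and 120.4 CPM at 24 h. The pair at 133296688 and 133297541 was also called lower at 24 h when joined in this way (-0.35, SE 0.08). Neither joined region was called at 2 h or 4 h. The weakest by far, at 133387894 to 133388294, had only 10 to 29 reads per library. It held 2.85 and 3.13 CPM in DMSO, 5.50 and 3.63 CPM at 2 h, 4.09 and 3.72 CPM at 4 h, and 5.74 and 4.78 CPM at 24 h. All its treated libraries lie above both DMSO libraries, but the log2 changes of 0.57, 0.38 and 0.82 come with standard errors of 0.39, 0.41 and 0.37.

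Between the windows, the FUBP3 peak at 133454924 to 133455324 held 105 and 102 CPM in DMSO, 97.4 and 108 CPM at 2 h, 86.2 and 97.8 CPM at 4 h, and 94.5 and 101 CPM at 24 h. Its log2 change was -0.0049 at 2 h (SE 0.08), -0.17 at 4 h (SE 0.09) and -0.09 at 24 h (SE 0.08). Both libraries at 4 h and at 24 h lie below DMSO, as 21.5% and 25.1% of all tested peaks do at those times, and the change was called at none. At 99.7 kb before it and 80.4 kb after it stand the nearest peaks of the 2 blocks.

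**Figure D4:**
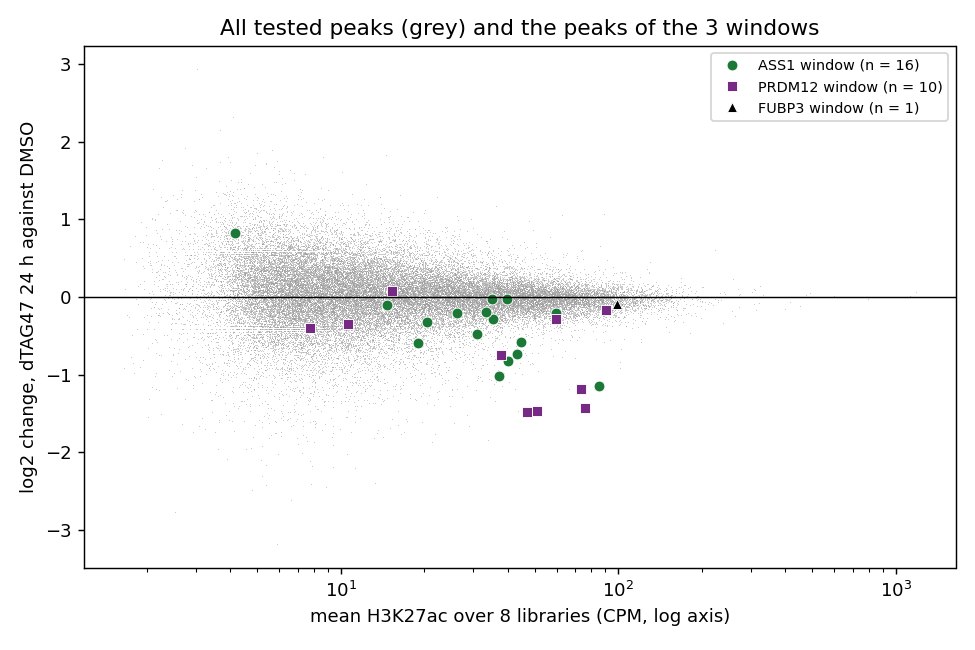
Log2 change of H3K27ac at 24 h of dTAG47 against DMSO (vertical axis) by mean signal over the 8 libraries in CPM (horizontal log axis) for all 41791 tested peaks in grey, with the peaks of the 3 windows on top. The 4 peaks of the PRDM12 block, at -1.18 to -1.48, and the ASS1 peak at -1.14 are among the 357 most negative changes of all, and the FUBP3 peak is at -0.09.

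Comparisons between treated times contrast treated groups only, but the model, its scaling and its estimate of the spread still include the DMSO libraries. Between 4 h and 2 h, 0 of the 26 members were called, as were 0% of all tested peaks in either direction (edgeR; without adjustment, p was under 0.05 for 1511 lower and 1381 higher peaks; DESeq2 also called 0 members). At 24 h against 4 h, 3 members were called lower and 0 higher, where 0.68% and 0.438% of all peaks were. They are the peaks at 133535360 (log2 change -0.61, SE 0.13) and 133540074 (-0.38, SE 0.10) in the PRDM12 block and that at 133297541 (-0.43, SE 0.12) in the ASS1 window. The count was 1 without 4 h library A, 0 without 4 h library B, and 1 without either 24 h library, and DESeq2 called 0.

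At 24 h against 2 h, 8 members were called lower and 0 higher, where 2.49% and 1.69% of all peaks were. The 4 peaks of the PRDM12 block were among them, with log2 changes of -0.65, -0.38, -0.68 and -0.67 in genome order. So was the strongest ASS1 peak, at 133355271 (-0.32, SE 0.09). The other 3 lie outside the blocks, in the ASS1 window at 133264141 (-0.70), 133297541 (-0.58) and 133322991 (-0.40). The last of these held 27.9 and 29.1 CPM at 24 h and 36.9 and 38.2 CPM at 2 h, and it was not called against DMSO, where it held 30.5 and 34.7 CPM. The count was 4 without 2 h library B or 24 h library A, 6 without 2 h library A or 24 h library B, and 2 in DESeq2.

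Joining peaks at most 12500 bases apart gave 26144 tested regions in the whole table, and both blocks fell into regions of high summed signal. A region's signal is the sum over its peaks, so its rank also reflects how many peaks were joined. The ASS1 block joined 8 of the other peaks in a region of 13 peaks and 59.0 kb at 133296688 to 133355671. By this summed signal, averaged over the 8 libraries, it ranked 44th among all regions. It held 618 and 636 CPM in DMSO, 490.3 and 508 CPM at 2 h, 482 and 471 CPM at 4 h, and 415 and 433 CPM at 24 h, and was called lower at each time (log2 change -0.33, -0.40 and -0.56). At 2 h, 4 h and 24 h, 1.53%, 2% and 5.55% of all regions were called lower. The PRDM12 block and the pair at 133547602 and 133548398 made a region of 6 peaks and 13.4 kb, which ranked 175th. It held 473 and 460.5 CPM in DMSO, 289 and 279.7 CPM at 2 h, 243 and 252 CPM at 4 h, and 199 and 205 CPM at 24 h. Its log2 changes of -0.72, -0.91 and -1.21 were called at each time. The long ASS1 region thus mixes its block with 8 peaks outside it.

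The summed signals of the ASS1 and PRDM12 windows ran together across the 8 libraries, with Pearson's r of 0.991 on log2 CPM. The points share libraries and scaling and fall into 4 groups, so r is a description only. Elsewhere in the genome, among 20872 peaks at or above the median signal, the 5 with the courses most like the summed ASS1 window had r from 0.985 to 0.991 over the same 8 libraries. They are chr1:31351413-31351813, chr3:112960355-112960755, chr16:89610980-89611380, chr17:27297375-27297775 and chr17:81045193-81045593. The chromosome 1 peak held 45.3 and 46.6 CPM in DMSO, 30.0 and 30.7 CPM at 2 h, 25.6 and 27.8 CPM at 4 h, and 19.0 and 20.9 CPM at 24 h. It kept the same order of groups as the ASS1 sum, with a larger relative drop by 24 h.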

How the data were processed

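The table deposited by the authors gives read counts in peak windows of 400 bases for 8 H3K27ac libraries; the values are whole numbers whose totals differ between libraries, so they were taken as raw. Per the submitters' processing notes, the tools were DESeq2, DiffBind, MACS2, Bowtie2 and Trimmomatic 0.32, on hg19 and dm3, with no roles stated. Duplicate removal, the use of dm3 and any spike-in are not described in the sources used here. The libraries were scaled by TMM on the peaks themselves, so a change common to all peaks cannot be seen. The 2 input libraries were not analysed here.

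A column's name gives its group and a letter, but not the replicate number of the labels, so each library is known by group only; 0 columns lacked a group. Tests used the quasi-likelihood method of edgeR 4.0.16 (R 4.3.3) on the counts as they stood: filterByExpr (minimum count 10, minimum total 15) kept 41791 peaks, TMM scaled the libraries, and 1 robust quasi-likelihood model covered the 4 groups. Its biological coefficient of variation was 3.29%, and standard errors come from the F statistic, so they rest mostly on the spread shared by all peaks. Replicate libraries differed by more than sampling noise (chi-square per degree of freedom 1.06 to 1.21). DESeq2 1.42.0 served as an alternative. The procedure was also run on simulated counts drawn with the spread fitted to these libraries, with its outcome not given here. Such counts cannot show how it handles spread between separate cultures.

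The members, windows and lists were chosen with earlier results of these data known. Peaks were printed per library by rule: in each window the 6 of highest mean CPM (2 for FUBP3) and further ones called against DMSO; those at 133322991, 133387894 and 133547602 were added after their values were seen. Promoters come from RefSeq (GRCh38.p14). Peak sequences were not used here. Starts may count from 0 or 1.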

Additional observations from a re-analysis of the deposited data

Results flagged for a closer look

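Log2 changes that differed between 2 times by the direct edgeR test were flagged for a closer look. At 24 h against 4 h they were -0.43 at the peak at 133297541, -0.61 at 133535360 and -0.38 at 133540074. At 24 h against 2 h they were -0.70 at 133264141, -0.58 at 133297541, -0.40 at 133322991 and -0.32 at 133355271 in the ASS1 window. In the PRDM12 block they were -0.65 at 133535360, -0.38 at 133536055, -0.68 at 133538929 and -0.67 at 133540074. These changes use the same 24 h libraries. With 2 libraries per group, no library could be tested as an outlier.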

How the results depend on the processing

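The columns carry letters and not the labels' replicate numbers, so the labels pair no libraries. A replicate block on the letter, added after the data were seen, left every count of members called as it was (5, 4 and 7 for ASS1 and 5, 5 and 5 for PRDM12 at 2 h, 4 h and 24 h; 3 at 24 h against 4 h; 8 at 24 h against 2 h). Deviations of same-lettered libraries from their group means correlated between -0.03 and 0.05 over peaks. DESeq2 called fewer ASS1 peaks lower, 1 at 2 h, 2 at 4 h and 4 at 24 h, and of both windows 0 at 24 h against 4 h and 2 at 24 h against 2 h. With 1 library left out, in fits that assume the lone library varies like the other groups, ASS1 peaks called lower ranged from 2 to 4 at 2 h, 3 to 4 at 4 h and 5 to 6 at 24 h. PRDM12 peaks ranged from 4 to 5 at 2 h and were 5 at 4 h and 24 h. Members called lower ranged from 0 to 1 at 24 h against 4 h and from 4 to 6 at 24 h against 2 h. Size factors, total counts, no filter and fits of 2 groups kept every count against DMSO within 1.5 times, and no call changed direction. The single-peak region at 133264141 had a 24 h log2 change from -0.61 to -0.57 and lost its call each time 1 library was left out. That at 133569155 ranged from -0.39 to -0.16 and was called only without DMSO library B (-0.39). The 5 kb distance split the long ASS1 region into parts. Of those outside the block, the pair at 133296688 (-0.35) and the row at 133320318 (-0.23) were called lower at 24 h. The block itself was split into the peak at 133341253 (-0.47), the 3 peaks from 133347265 (-0.84) and the peak at 133355271 (-1.14). These parts were also called lower at 24 h. Counts of 10 to 29 reads at 133387894 limit what can be seen there.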
